A study of Mus musculus with 300 samples.

Results

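The comparison described here sets the response of liver to WY14643 against the response of kidney to the same compound, in the same mice. It uses 90 of the 300 arrays of the series, the liver and kidney arrays of 15 mice given WY14643 and 30 mice given vehicle. The members were chosen from the sample labels alone: the mouse number identified the 2 tissues of an animal, the kidney value of each of 18193 genes was subtracted from its liver value, and these within-animal differences were compared between WY14643 and vehicle animals of the same day. WY14643 was given by mouth at 10 mg/kg, and 5 mice were taken on each of days 4, 8 and 15, beside 10 vehicle mice on each of those days. Strain, sex, age, diet, the composition of the vehicle and the hour of tissue collection are not given in the sources used here, and all groups are whole tissue of intact mice with no genetic change named. In whole tissue, a change in the number of cells of a type and a change in RNA per cell cannot be told apart.

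WY14643 is an agonist of PPAR-alpha, a nuclear receptor that pairs with the retinoid X receptor (RXR) and binds repeats of the motif AGGTCA in the genes it regulates. Its known targets take up, activate and oxidise fatty acids in mitochondria and peroxisomes, hydroxylate the far end of the fatty acid chain in the endoplasmic reticulum, and make ketone bodies in the fasted liver. Hepatocytes and the proximal tubule cells of the kidney both burn fatty acids and both express this receptor, whereas the liver also makes plasma proteins, bile acids and lipoproteins and clears drugs.

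The labelled tissues carried their own defining genes. The mean of 14 kidney tubule markers was 10.90 to 11.29 (log2 intensity) in the 45 kidney arrays and 4.33 to 4.98 in the 45 liver arrays, and the mean of 12 hepatocyte markers was 13.96 to 14.21 in liver. In kidney the hepatocyte markers ranged from 5.69 to 7.74 (median 6.44) in WY14643 animals and from 5.80 to 7.36 (median 6.13) in vehicle animals. The mean of 6 adipocyte markers in kidney ranged from 4.20 to 7.64 (median 5.82) with WY14643 and from 3.66 to 7.98 (median 5.09) with vehicle. 1 kidney array stood apart: in replicate 2 of WY14643 day 4 the mean of 8 exocrine pancreas markers was 11.66, against 3.22 to 3.78 in the other kidney arrays, and this kidney also deviated most from its group over all genes (median absolute deviation 0.20, against 0.09 to 0.17 in the other 44). The liver of the same animal (0.22) and that of WY14643 day 4 replicate 5 (0.25) deviated most among the livers, where the other 43 lay at 0.11 to 0.17. The main counts are therefore given with and without replicate 2. List counts without replicate 2 or replicate 5 are given where they moved by over 1.5 times or went to or from 0, cell type marker lists aside. Liver and kidney arrays had different medians (6.12 to 6.26 and 5.05 to 5.38), so effects are compared between the tissues, and a level set across them is open to that separate scaling.

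More genes were called with WY14643 in liver than in kidney. In liver 2059 genes changed at an adjusted p under 0.05 in limma with Benjamini-Hochberg adjustment (11.3% of 18193 tested), 1015 of them up (5.58%) and 1044 down (5.74%). In kidney 324 genes changed (1.78%), 172 up (0.945%) and 152 down (0.835%). The number that changed by at least 1.5-fold was 230 in liver (1.26%) and 46 in kidney (0.253%). The test of the difference itself, on liver minus kidney within each animal, called 856 genes (4.71%), 228 of them at least 1.5-fold (1.25%), and of the 856 genes 490 had the higher effect in liver (2.69%) and 366 the lower (2.01%). At an unadjusted p under 0.05 it passed 2782 genes (15.3%). Without WY14643 day 4 replicate 2 992 genes rose and 918 fell in liver, 130 and 97 in kidney, and 413 and 276 had the higher and the lower effect in liver. The 1.5-fold counts without it were 194 in liver, 37 in kidney and 196 for the difference. Without replicate 5 of that group 2094 genes were called in liver, 1.78% of all genes in kidney, and 858 differences. Without day 15 the difference was called for 403 genes and 1208 genes were called in liver, and the kidney share was 0.588% (0.989% without day 8). The kidney share rose to 3.55% with array weights and to 2.84% in a fit of WY14643 and vehicle animals only. The median standard error of an effect was 0.063 in liver, 0.072 in kidney and 0.095 for the difference, on the log2 scale.

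Joining the 3 tests sorts the genes by where they responded. Liver-led genes, with a difference and a liver effect called and no kidney effect called, numbered 616 (3.39%), 354 up and 262 down. Kidney-led genes numbered 86 (0.473%), 42 up and 44 down, and 54 without WY14643 day 4 replicate 2. A shared response in one direction was called for 99 genes, which is 4.81% of the liver calls and 30.6% of the kidney calls. For 71 of these 99 the difference was not called (0.390%), 45 up and 26 down, and for 28 it was (0.154%): 24 moved more in liver and 4 more in kidney. Opposite directions were called for 13 genes (0.0715%), for 7 without WY14643 day 8 replicate 1, for 8 without day 15 replicate 4 or replicate 5, and for 27 with array weights. The liver-led genes numbered 508, the shared 83 and the opposite 9 without WY14643 day 4 replicate 2. Without day 15 the liver-led genes numbered 300, the kidney-led 22, the shared 45 and the opposite 3, and without day 8 the kidney-led numbered 35. A further 1331 genes (7.32%) were called in liver and 126 (0.693%) in kidney with no difference called, so that they count neither as shared nor as specific to a tissue, and 113 (0.621%) had a called difference with neither tissue called.

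Most liver-led genes were not among the dimmest of the kidney arrays. Of the 616 liver-led genes, 492 (79.9%) had a vehicle level in kidney at or above the 40th percentile of that tissue (5.38), and of the 86 kidney-led genes, 61 (70.9%) were at or above the 40th percentile of liver (6.17), where by construction 60% of all genes lie. The signal of a probe set depends on its probes as well as on its mRNA, so this is a description of brightness.

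**Figure D1:**
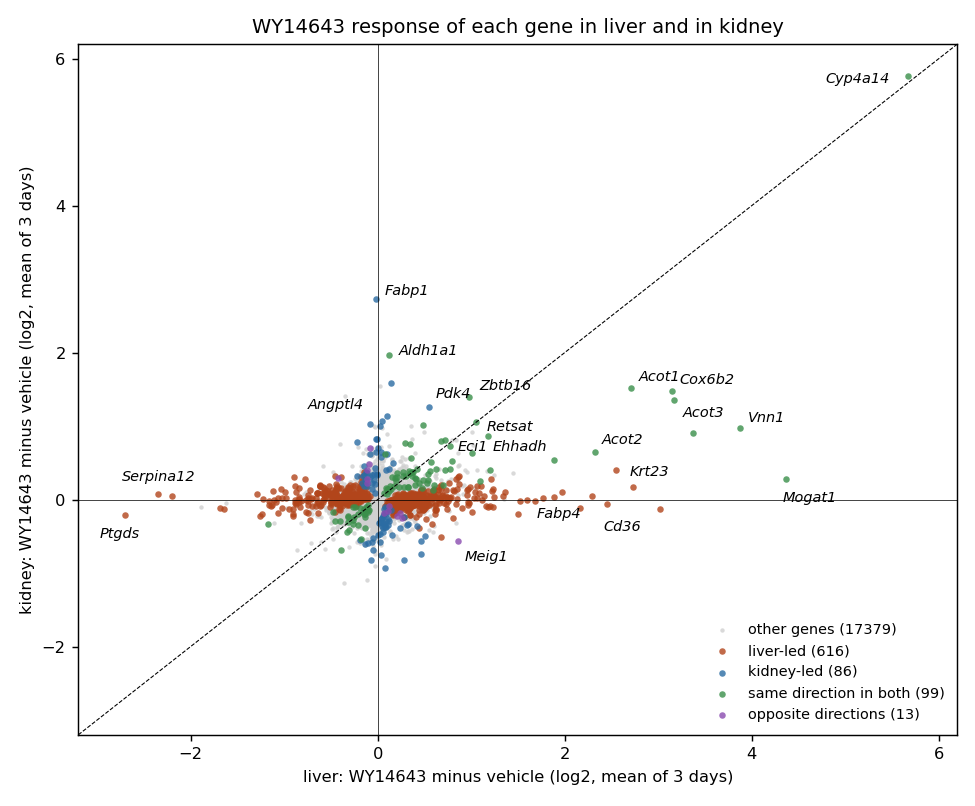
Each point is 1 of 18193 genes, placed by its WY14643 effect in liver (horizontal axis) and in kidney (vertical axis), in log2 units and averaged over 3 days, with colours for the response classes and a dashed line of equal effects. Most coloured points lie along the horizontal axis, Cyp4a14 sits near the line at 5.67 and 5.76, and Fabp1 sits on the vertical axis at 2.73.

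The largest effect in both tissues was in Cyp4a14 (gene ID 13119), a fatty acid omega-hydroxylase of the endoplasmic reticulum and a textbook target of PPAR-alpha in mouse liver. In liver the WY14643 animals read 13.88, 13.93, 13.90, 13.89 and 13.73 on day 4, 14.04, 13.94, 13.94, 14.01 and 13.97 on day 8, and 13.92, 13.83, 13.84, 13.64 and 13.85 on day 15 (log2 intensity). Their vehicle controls had a lowest, median and highest value of 5.25, 7.53 and 11.53 on day 4, 6.26, 9.90 and 12.10 on day 8, and 5.08, 6.51 and 10.14 on day 15. All treated livers lay within a narrow band above a wide vehicle range, with no overlap on any day. In kidney the treated values of Cyp4a14 were 12.03, 13.31, 12.41, 12.28 and 12.30 on day 4, 13.18, 12.77, 12.60, 12.60 and 12.23 on day 8, and 12.63, 12.65, 12.46, 12.70 and 13.01 on day 15. The vehicle kidneys ran from 5.72 over 6.97 to 9.11, from 5.26 over 6.67 to 9.12 and from 5.79 over 6.41 to 8.04 on the same days, again with no overlap. The effect was 5.67 ± 0.48 (SE) in liver and 5.76 ± 0.27 in kidney, 51.0-fold and 54.3-fold, in 15 of 15 animals each. The difference of -0.09 ± 0.47 was not called (limma adjusted p = 0.966), and its 95% interval of -1.03 to 0.85 leaves room for an unequal response of up to about that size either way. The treated livers read close to the brightest value on any liver array (14.77), and how far this limits the liver effect was not tested. Cyp4a14 has near-identical relatives that its probe set may also detect.

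Retsat and Eci1 also rose alike in both tissues. Retsat (gene ID 67442) encodes retinol saturase, an enzyme that reduces a double bond of retinol. Its treated livers read 13.34 to 13.74 (median 13.61, n = 15) and the vehicle livers 11.91 to 12.91 (median 12.55, n = 30), and its treated kidneys read 11.51 to 12.24 (median 11.73) against 10.29 to 11.23 (median 10.70). The groups did not overlap in either tissue, and the effects were 1.05 ± 0.06 and 1.06 ± 0.07 with a difference of 0.00 ± 0.09 (limma adjusted p = 0.995). A second probe set of Retsat gave 1.81 in liver and 1.10 in kidney, and with that probe set the difference was 0.71 (adjusted p = 4.71e-09), so the equality of the Retsat response depends on the probe set. Eci1 (gene ID 13177) encodes the mitochondrial enoyl-CoA isomerase that lets unsaturated fatty acids enter beta-oxidation. Its treated livers read 12.41 to 12.97 (median 12.73) above vehicle livers at 11.65 to 12.16 (median 11.98), and its treated kidneys 10.80 to 11.56 (median 11.13) against 9.84 to 10.87 (median 10.31). Eci1 did not overlap within any day in either tissue and rose by 0.72 ± 0.04 in liver and 0.80 ± 0.07 in kidney, with a difference of -0.08 ± 0.07 (limma adjusted p = 0.680, 95% interval -0.22 to 0.06). Zbtb16, a zinc finger transcription factor, rose by 0.97 ± 0.18 in liver and 1.39 ± 0.22 in kidney with no difference called (-0.42 ± 0.15, adjusted p = 0.101). Its kidney call was lost without day 8 (0.87, adjusted p = 0.112), and its difference was called without day 4 (-0.70, adjusted p = 0.0133). A second probe set of Zbtb16 gave 1.31 in liver and 1.46 in kidney with no difference called. A dimmer one gave 0.82 in liver and 0.24 in kidney (adjusted p = 0.325), with a called difference of 0.57 (adjusted p = 0.017). The shared Zbtb16 response therefore depends on the probe set.

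Several shared genes rose in both tissues but more in liver. Cox6b2 (gene ID 333182), the testis-type form of a cytochrome oxidase subunit, read 8.54 to 11.77 (median 9.86) in treated livers and 5.51 to 9.55 (median 6.49) in vehicle livers, with overlap on day 8 only. In kidney Cox6b2 read 7.57 to 9.14 (median 8.48) against 6.59 to 7.18 (median 6.93), without overlap. It rose 8.85-fold in liver and 2.79-fold in kidney, and the difference was 1.67 ± 0.25 on the log2 scale (limma adjusted p = 3.16e-06, 14 of 15 animals). Genes named for the largest differences needed at least 14 of 15 animals on their side. Such counts, here and below, follow partly from that choice. Acot1 (gene ID 26897), a cytosolic acyl-CoA thioesterase with near-identical relatives, rose by 2.71 ± 0.19 in liver and 1.52 ± 0.16 in kidney, a difference of 1.19 ± 0.18 (adjusted p = 2.52e-06). The sister genes Acot3 (3.16 and 1.35) and Acot2 (2.32 and 0.65) also rose in both and more in liver, although the probe sets of this family may share signal and the Acot3 difference was lost without day 8 (1.08, adjusted p = 0.204). A dimmer probe set of Acot2 rose by 0.73 in liver and 0.45 in kidney, and its difference of 0.28 was not called (adjusted p = 0.181). Ehhadh (gene ID 74147), the bifunctional enzyme of peroxisomal beta-oxidation, read 13.15 to 13.79 (median 13.44) in treated livers and 10.97 to 12.08 (median 11.65) in vehicle livers, and 11.74 to 12.43 (median 11.88) against 11.18 to 11.67 (median 11.33) in kidney. Ehhadh did not overlap in either tissue. It rose by 1.89 ± 0.06 in liver and 0.54 ± 0.05 in kidney, with a difference of 1.35 ± 0.08 (adjusted p = 2.34e-22) in 15 of 15 animals.

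Vnn1 (gene ID 22361), a pantetheinase that releases cysteamine and pantothenate, rose strongly in liver and 1.97-fold in kidney. In liver the treated animals read 11.56, 13.72, 11.84, 11.97 and 10.77 on day 4, 13.35, 12.39, 12.69, 12.22 and 11.78 on day 8, and 11.86, 11.85, 12.08, 12.27 and 12.88 on day 15. Vehicle livers had a lowest, median and highest Vnn1 value of 7.44, 8.16 and 9.88, of 7.80, 8.45 and 8.93 and of 7.60, 8.32 and 9.01 on these days. The highest liver value belonged to the animal with the outlying kidney, and no treated liver reached down into the vehicle range. In kidney Vnn1 read 11.62, 12.70, 11.65, 11.65 and 11.99, then 12.32, 11.80, 12.01, 11.90 and 11.92, then 11.86, 11.46, 11.53, 11.81 and 12.11, against vehicle values from 10.38 to 11.54. The kidney groups of each day were also separate, by a narrow margin on day 4. The effect was 3.88 ± 0.17 in liver and 0.98 ± 0.08 in kidney, and the difference of 2.90 ± 0.18 was called (limma adjusted p = 1.92e-21, 15 of 15 animals).

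Mogat1 had the largest difference between the tissues of all genes tested. Mogat1 (gene ID 68393) encodes a monoacylglycerol acyltransferase, which makes diacylglycerol on the way to triglyceride. In liver the treated animals read 10.22, 10.01, 10.78, 10.48 and 10.85 on day 4, 12.27, 11.19, 11.42, 11.72 and 10.53 on day 8, and 11.68, 11.24, 10.90, 11.34 and 11.18 on day 15. Vehicle livers had a lowest, median and highest Mogat1 value of 5.83, 6.66 and 8.07 on day 4, 5.98, 6.62 and 7.56 on day 8, and 6.08, 6.48 and 7.78 on day 15. The treated livers lay well above every vehicle liver. In kidney Mogat1 read 12.63, 12.44, 12.54, 12.71 and 12.44, then 12.71, 12.51, 12.63, 12.72 and 12.46, then 12.75, 12.66, 12.46, 12.50 and 12.42 on the 3 days. The vehicle kidneys read 12.06 to 12.55 (median 12.27), so the kidney was bright without the compound and the groups overlapped on each day. Mogat1 rose 20.7-fold in liver (4.37 ± 0.21) and 1.22-fold in kidney (0.29 ± 0.04), and the difference was 4.08 ± 0.20 (limma adjusted p = 6.25e-26) in 15 of 15 animals.

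Cd36 and Fabp4 rose in liver and showed no called change in kidney, where both were bright in vehicle animals. Cd36 (gene ID 12491) encodes a fatty acid transporter of the cell surface. Its treated livers read 8.05, 11.32, 9.30, 8.75 and 9.16 on day 4, 11.67, 10.89, 10.68, 10.91 and 9.39 on day 8, and 10.76, 10.96, 10.26, 10.77 and 11.07 on day 15, against vehicle livers at 6.77 to 8.11, 7.18 to 8.41 and 7.47 to 8.41. Only the first animal of day 4 fell inside the vehicle range of Cd36. In kidney Cd36 read 10.92 to 11.76 (median 11.38) with WY14643 and 11.05 to 11.62 (median 11.42) with vehicle, and the groups overlapped throughout. The liver effect of 2.46 ± 0.17 and the kidney effect of -0.06 ± 0.06 differed by 2.52 ± 0.20 (limma adjusted p = 3.12e-16, 15 of 15 animals), and 2 other probe sets of Cd36 gave differences of 2.45 and 2.33. Fabp4, a fatty acid binding protein best known from fat cells and macrophages, read 10.61 to 13.33 (median 11.96) in treated livers and 9.40 to 10.36 (median 9.97) in vehicle livers, without overlap. Its difference was 1.88 ± 0.19 (adjusted p = 3.00e-11). With the probe set of largest variance, a dim one (mean 4.97 in liver), the Fabp4 difference was 0.40 and not called (adjusted p = 0.277). Another dim probe set of Fabp4 (mean 3.31 in liver) gave 0.02, not called. A bright one (mean 10.03 in liver) gave a called difference of 2.04 (adjusted p = 7.95e-11).

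Other liver-led genes with large rises were not enzymes of fatty acid oxidation. Krt23, an epithelial keratin, read 6.25 to 10.32 (median 9.66) against 5.59 to 7.43 (median 6.46) in liver, with overlap on days 4 and 15, and had a difference of 2.56 ± 0.22 (limma adjusted p = 3.30e-14). Il1rn, the interleukin 1 receptor antagonist, read 6.87 to 12.07 (median 8.41) against 5.27 to 8.13 (median 6.24) in liver, and its highest value came from the animal with the outlying kidney. The Il1rn difference was 2.24 ± 0.24 (adjusted p = 2.20e-10) in 15 of 15 animals. Abcd2, a transporter of very long chain fatty acids into peroxisomes, rose by 1.59 ± 0.26 in liver with -0.01 ± 0.10 in kidney, and Vldlr, a lipoprotein receptor, rose by 1.25 ± 0.21 with 0.03 ± 0.06. Both differences were called (adjusted p = 2.54e-05 and 6.05e-05).

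The largest liver-led falls were in Ptgds and Serpina12. Serpina12 (gene ID 68054) encodes vaspin, a secreted serpin. Its treated livers read 12.18, 9.45, 11.65, 11.03 and 10.30 on day 4, 8.42, 10.46, 11.48, 10.77 and 11.68 on day 8, and 11.68, 10.21, 11.71, 10.03 and 9.30 on day 15. Vehicle livers had a lowest, median and highest Serpina12 value of 12.53, 12.93 and 13.23, of 12.64, 13.16 and 13.45 and of 12.58, 13.17 and 13.38. Every treated liver read below every vehicle liver of its day, with a wide spread among treated animals, and all kidneys were dim (2.38 to 3.58). The difference was -2.42 ± 0.23 (limma adjusted p = 1.12e-12) in 15 of 15 animals. Ptgds, the lipocalin-type prostaglandin D synthase, read 7.82 to 12.02 (median 9.40) in treated livers and 10.29 to 13.44 (median 12.11) in vehicle livers, and 6.37 to 9.21 (median 8.63) against 7.09 to 9.44 (median 8.41) in kidney. Its liver groups overlapped on day 4 only, and the difference was -2.50 ± 0.33 (adjusted p = 6.84e-08).

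Acsm2, Apoa4 and Gstm2 fell in liver as well, and no change of them was called in kidney. Acsm2, a medium-chain acyl-CoA synthetase, was bright in all kidneys (13.02 to 13.33), and in liver it read 4.98 to 7.57 (median 6.21) with WY14643 and 5.71 to 8.52 (median 7.38) with vehicle. The liver groups of Acsm2 were separate on day 15 only, and the difference was -1.14 ± 0.17 (limma adjusted p = 2.42e-06). Apoa4, an apolipoprotein of triglyceride-rich lipoproteins, read 11.05 to 13.44 (median 12.02) against 12.52 to 13.72 (median 13.20) in liver, with overlap on day 4 only. Its difference was -1.05 ± 0.18 (adjusted p = 3.60e-05). Gstm2, a glutathione transferase with close relatives, fell by 0.99 on the log2 scale in liver with 0.11 ± 0.09 in kidney (difference -1.10 ± 0.14, adjusted p = 6.79e-08).

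**Figure D2:**
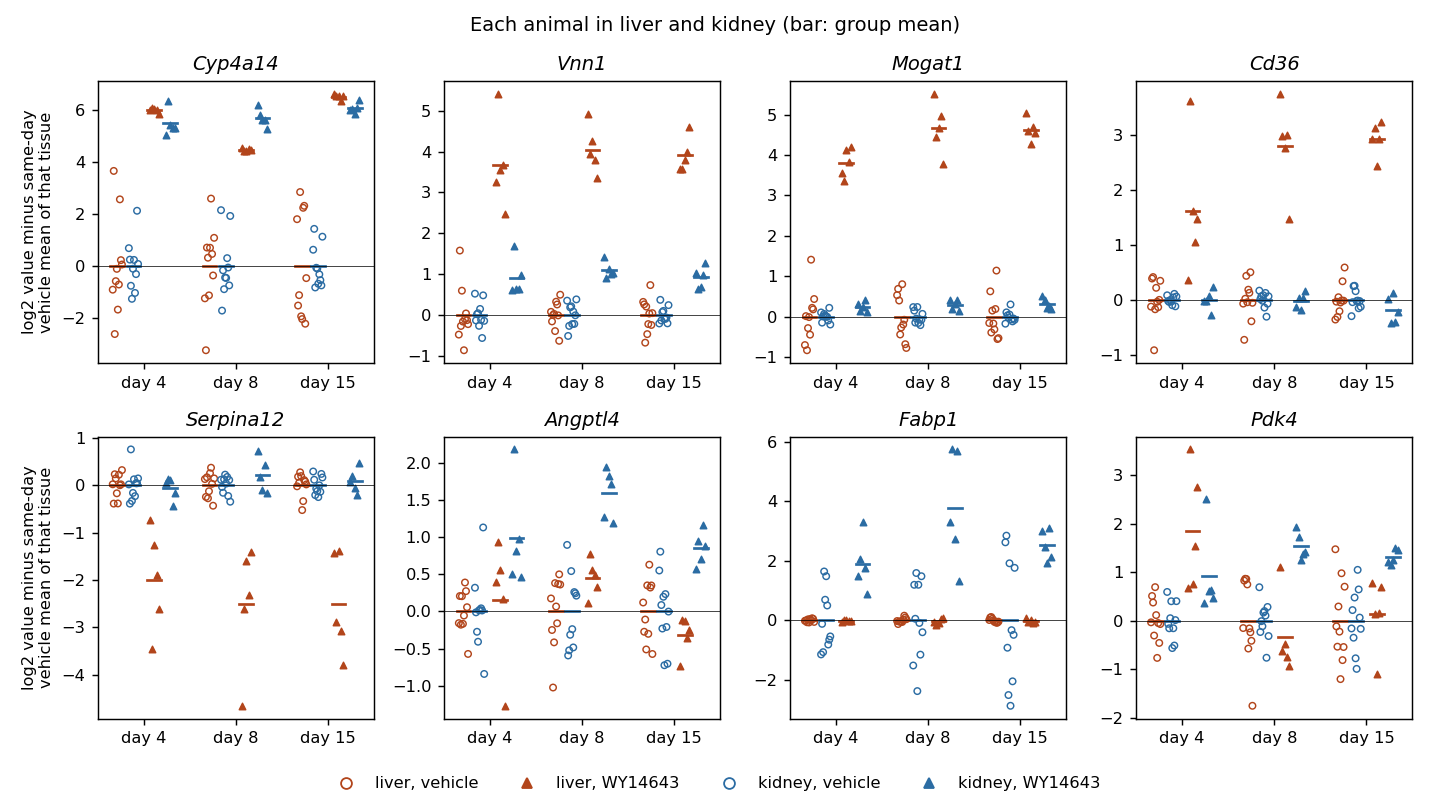
Each point is 1 animal's log2 value of 1 of 8 genes minus the same-day vehicle mean of that tissue, for liver and kidney and for vehicle and WY14643 animals, with a bar at the group mean. Cyp4a14 lies high in both tissues, Mogat1, Vnn1 and Cd36 lie higher in liver, Serpina12 lies low in liver alone, and Angptl4 and Fabp1 lie high in kidney with liver around 0.

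Fabp1 (gene ID 14080), the liver fatty acid binding protein, which carries fatty acids in the cytosol of hepatocytes and enterocytes, had the largest kidney-led effect. The 250 bases before its start are shown because they held the repeat that PPAR and RXR bind, in a looser form, and the same windows are shown for Mogat1, with its larger liver response, and for Retsat, whose response was even with only the brighter of its probe sets. Capitals mark the match, and all 3 lie on the plus strand of GRCm38.p6 as given by RefSeq.
Fabp1 chr6:71199629-71199878: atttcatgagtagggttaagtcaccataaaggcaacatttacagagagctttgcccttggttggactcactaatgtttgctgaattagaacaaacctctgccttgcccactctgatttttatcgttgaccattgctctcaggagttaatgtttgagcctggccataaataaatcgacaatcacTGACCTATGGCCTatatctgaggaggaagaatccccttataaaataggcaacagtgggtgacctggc
Mogat1 chr1:78510810-78511059: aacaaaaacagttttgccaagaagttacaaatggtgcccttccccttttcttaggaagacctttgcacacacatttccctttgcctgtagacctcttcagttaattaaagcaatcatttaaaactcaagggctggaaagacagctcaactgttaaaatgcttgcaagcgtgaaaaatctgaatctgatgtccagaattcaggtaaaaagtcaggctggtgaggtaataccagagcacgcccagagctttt
Retsat chr6:72598352-72598601: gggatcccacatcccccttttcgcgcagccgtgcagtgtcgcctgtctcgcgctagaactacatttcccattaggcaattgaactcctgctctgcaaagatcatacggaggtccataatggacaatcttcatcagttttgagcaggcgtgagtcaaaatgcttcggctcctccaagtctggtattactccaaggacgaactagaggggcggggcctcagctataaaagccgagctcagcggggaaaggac

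The search used the motif AGGTCA, the direct repeat AGGTCANAGGTCA and the looser repeat AGGNCANAGGNCA, which contains the stricter one, on both strands. Of 32851 promoters given by RefSeq 14% held AGGTCA, 0.0335% the strict repeat and 0.338% the looser repeat. In Fabp1 the looser repeat was found on the minus strand as TGACCTATGGCCT, from 67 to 55 bases before the start, and AGGTCA or its reverse was found 2 times. Mogat1 and Retsat held none of the 3 motifs in this window. Of the 14452 tested genes with a promoter, 0.394% held the looser repeat. Of the 34 kidney-led rising genes 1 held it, which was Fabp1, shown because of that match. It was held by 0 of the 281 liver-led rising genes and 0 of the 33 shared rising genes without a called difference. Among falls, 2 of 206 liver-led genes (0.971%) and 5 of 606 genes called in liver without a called difference (0.825%) held it, and so did 1 of 6 genes that fell in liver and rose in kidney. These counts describe letters in short windows, and of the 29 genes shown by animal 23 had a promoter in the table.

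In liver Fabp1 was among the brightest genes and no change was called: treated livers read 14.07 to 14.31 and vehicle livers 14.09 to 14.37, near the top of the range of the arrays (14.77). In kidney the treated animals read 6.87, 7.44, 8.68, 7.13 and 6.28 on day 4, 9.66, 12.08, 9.08, 12.04 and 7.67 on day 8, and 9.15, 8.62, 8.08, 9.27 and 8.28 on day 15. Vehicle kidneys had a lowest, median and highest Fabp1 value of 4.24, 5.05 and 7.02 on day 4, 3.96, 6.32 and 7.93 on day 8, and 3.29, 5.75 and 9.01 on day 15. All 15 treated kidneys exceeded the mean of their vehicle group, with overlap on each day and the widest spread on day 8. The kidney effect was 2.73 ± 0.50 (limma adjusted p = 0.000217), the liver effect -0.02 ± 0.02, and the difference -2.75 ± 0.51 (adjusted p = 0.000128). A second probe set of Fabp1 gave 2.52 in kidney. Without day 8 the kidney effect was 2.21 and lost its call (adjusted p = 0.0585). Since Fabp1 is a hepatocyte gene, the hepatocyte markers of each kidney were set beside it. In the treated kidneys of day 8 they read 5.81, 5.69, 6.19, 7.74 and 6.33. Over all days their median was 6.444 in treated and 6.125 in vehicle kidneys. With the hepatocyte marker mean as a covariate the Fabp1 kidney effect was 2.40 (adjusted p = 8.61e-05), and with hepatocyte and adipocyte markers together it was 2.35 (adjusted p = 1.67e-04). The part of hepatocyte RNA in the Fabp1 effect was not tested.

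Angptl4 and Reep6 were further kidney-led rises. Angptl4 (gene ID 57875) encodes a secreted inhibitor of lipoprotein lipase and is a known PPAR target in many tissues. Its treated kidneys read 9.22, 10.90, 9.53, 9.69 and 9.18 on day 4, 9.74, 10.42, 10.30, 10.19 and 9.66 on day 8, and 9.42, 9.79, 9.55, 10.01 and 9.73 on day 15. Vehicle kidneys had a lowest, median and highest Angptl4 value of 7.88, 8.73 and 9.85, of 7.88, 8.46 and 9.37 and of 8.12, 8.89 and 9.65, so the groups were separate on day 8 and overlapped on days 4 and 15. In liver Angptl4 read 10.29 to 12.49 (median 11.81) with WY14643 and 10.35 to 12.57 (median 11.65) with vehicle, with overlapping ranges on each day. The kidney effect of 1.14 ± 0.14 and the liver effect of 0.10 ± 0.12 differed by -1.04 ± 0.13 (limma adjusted p = 1.05e-08) in 15 of 15 animals. A dimmer probe set of Angptl4 (mean 4.90 in liver and 2.05 in kidney) called neither tissue. It gave 0.12 in kidney (adjusted p = 0.799) and -0.49 in liver (adjusted p = 0.102), with a called difference of -0.61 (adjusted p = 0.0384). The kidney rise of Angptl4 therefore depends on the probe set. Reep6, a protein that shapes the endoplasmic reticulum, read 9.91 to 11.25 (median 10.17) in treated kidneys against 8.05 to 10.25 (median 9.25) in vehicle kidneys, with overlap on day 4 only. It rose by 1.07 ± 0.13 in kidney with 0.04 ± 0.02 in liver, where it was bright in all animals (13.21 to 13.59), and the difference was -1.03 ± 0.13 (adjusted p = 3.53e-08).

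Pdk4 (gene ID 27273), the kinase that shuts off pyruvate dehydrogenase and so spares glucose, was called as kidney-led over the mean of the days, but the days disagreed in liver. In kidney it read 10.15, 12.29, 10.40, 10.41 and 10.26 on day 4, 11.74, 11.54, 11.08, 11.20 and 11.24 on day 8, and 11.37, 11.30, 11.41, 11.66 and 11.61 on day 15, against vehicle ranges of 9.22 to 10.38, 9.05 to 10.51 and 9.16 to 11.21. In liver Pdk4 read 10.06, 12.91, 10.13, 10.91 and 12.13 on day 4, then 11.99, 10.24, 10.39, 10.12 and 9.93, then 11.04, 10.38, 9.15, 10.40 and 10.95, against 8.61 to 10.07, 9.12 to 11.74 and 9.05 to 11.73. The treated kidneys were separate from vehicle on days 8 and 15, while the treated livers stood high on day 4 only. The kidney effect was 1.26 ± 0.14 (limma adjusted p = 6.89e-10), the liver effect 0.55 ± 0.22 (adjusted p = 0.0949) and the difference -0.71 ± 0.20 (adjusted p = 0.0261), which ran from 0.94 on day 4 to -1.88 on day 8 and -1.18 on day 15. The Pdk4 difference lost its call without day 8 (-0.12, adjusted p = 0.888) or day 15 (-0.47, adjusted p = 0.483), without any of 4 WY14643 animals (adjusted p = 0.0528 to 0.0709; day 4 replicates 1 and 3, day 8 replicate 2 and day 15 replicate 3), and with the tissues as independent arrays (adjusted p = 0.125).

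Aldh1a1, Mgll and Acaa1b rose in both tissues and more in kidney. Aldh1a1, a retinaldehyde dehydrogenase, read 7.16 to 10.65 (median 10.08) in treated kidneys and 5.54 to 9.56 (median 8.07) in vehicle kidneys, with no overlap on day 15 alone. Its kidney effect was 1.96 ± 0.33 and its liver effect 0.13 ± 0.02, a difference of -1.84 ± 0.35 (limma adjusted p = 0.000197). The neighbouring family member Aldh1a7 (1.58 in kidney, 0.15 in liver) may share probes with it. Mgll, the monoacylglycerol lipase, read 10.09 to 10.71 (median 10.48) in treated kidneys and 9.32 to 10.22 (median 9.64) in vehicle kidneys, with overlap on day 4 only. Mgll rose by 0.77 ± 0.06 in kidney and 0.29 ± 0.06 in liver, with a difference of -0.48 ± 0.08 (adjusted p = 4.94e-05). The probe set of largest variance called neither the kidney effect (0.07, adjusted p = 0.948) nor the difference (-0.29, adjusted p = 0.198). Acaa1b, the peroxisomal thiolase of the last step of beta-oxidation, read 12.11 to 12.96 (median 12.49) against 11.50 to 12.31 (median 11.75) in kidney and 13.82 to 14.39 (median 14.20) against 13.57 to 14.01 (median 13.84) in liver. The Acaa1b effect was 0.75 ± 0.06 in kidney and 0.35 ± 0.03 in liver, and the difference of -0.40 ± 0.07 was called (adjusted p = 9.54e-05). Its liver values lie near the top of the arrays, and how far that limits the liver effect was not tested.

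The vitamin D hydroxylases of the proximal tubule rose in kidney on average, with wide spread. Cyp27b1, which makes the active hormone, read 5.91 to 8.33 (median 6.71) in treated kidneys and 4.70 to 7.67 (median 6.0) in vehicle kidneys, and Cyp24a1, which degrades it, read 8.26 to 10.99 (median 9.77) against 6.63 to 10.62 (median 8.59). Both overlapped on each day. The Cyp27b1 effect was 0.82 ± 0.20 in kidney (limma adjusted p = 0.00887) and its difference -0.84 ± 0.21 (adjusted p = 0.00634), and the Cyp24a1 effect was 1.0 ± 0.26 (adjusted p = 0.0218) with a difference of -0.97 ± 0.28 (adjusted p = 0.0233). Cyp27b1 lost both calls without day 8 or day 15, where its difference was -0.72 (adjusted p = 0.112) or -0.68 (adjusted p = 0.202). For Cyp24a1 the kidney call was lost without WY14643 day 4 replicate 2 (0.94, adjusted p = 0.0543) or day 15 replicate 4 (0.92, adjusted p = 0.0518), and the difference without day 8 replicate 3 (-0.91) or day 15 replicate 4 (-0.88, adjusted p = 0.0598). Both calls of Cyp24a1 were also lost without any 1 of the 3 days (adjusted p = 0.0638 to 0.283 in kidney). Sec14l3, a lipid-binding protein, was a kidney-led fall: treated kidneys read 7.37 to 8.52 (median 7.99) and vehicle kidneys 8.10 to 9.30 (median 8.73), with overlap on day 4 only. Its kidney effect was -0.76 ± 0.11, its liver effect 0.04 ± 0.06, and its difference 0.80 ± 0.12 (adjusted p = 4.44e-06).

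Opposite directions were called for 13 genes: Adh1, Ascc1, Col18a1, Cyp2d9, Gjb1, Ivd, Meig1, Nat8f2, Nudt7, Odc1, Slc23a3, Syap1 and Tk1. 7 of them were higher in liver and lower in kidney. Ivd, the isovaleryl-CoA dehydrogenase of leucine breakdown, read 11.52 to 12.24 (median 12.10) against 11.38 to 12.22 (median 11.81) in liver and 10.77 to 11.32 (median 11.19) against 11.13 to 11.52 (median 11.35) in kidney. The treated animals lay to the high side in liver and to the low side in kidney, separate from vehicle on days 8 and 15 in liver and on day 4 in kidney. The liver effect of Ivd was 0.24 ± 0.04, the kidney effect -0.18 ± 0.03, and the difference 0.42 ± 0.05 (limma adjusted p = 3.71e-09). The kidney call was lost without day 4 (-0.11, adjusted p = 0.147) and with the probe set of largest variance (-0.13, adjusted p = 0.679). Meig1, a gene known from male germ cells, rose by 0.86 ± 0.16 in liver and fell by 0.56 on the log2 scale in kidney (difference 1.42 ± 0.17, adjusted p = 4.84e-09). Its kidney values were dim, at 2.87 to 4.13 against 3.13 to 5.05, and the kidney call was lost without any 1 of 12 animals (adjusted p up to 0.102, without WY14643 day 4 replicate 2) and without any 1 day. Tk1, a thymidine kinase of dividing cells, and Odc1, the first enzyme of polyamine synthesis, had liver effects of 0.26 and 0.21 and kidney effects of -0.25 and -0.23. The kidney call of Tk1 was lost without any 1 of 6 WY14643 animals (adjusted p up to 0.11) and that of Odc1 without any 1 of 8 animals (up to 0.152), and so was that of Slc23a3, a solute carrier, without any 1 of 5 WY14643 animals (up to 0.066). WY14643 day 4 replicate 2 was among these animals for all 3. Nudt7, a peroxisomal hydrolase of coenzyme A, went the other way, with -0.12 ± 0.03 in liver and 0.27 ± 0.05 in kidney (difference -0.39 ± 0.06, adjusted p = 1.05e-05). Other probe sets of Nudt7 also called the kidney rise. Their liver effects were -0.10 (adjusted p = 0.486), 0.01 (adjusted p = 0.962) and -0.24 (adjusted p = 0.000671), so the liver fall depends on the probe set.

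The PPAR target panel, 41 measured of 47 genes listed as PPAR targets, held rises and no falls in both tissues. In liver 29 of the 41 rose (70.7%) and 0 fell, in kidney 24 rose (58.5%) and 0 fell, and for 20 both rises were called. Of all genes tested 5.58% rose and 5.74% fell in liver, and 0.945% rose and 0.835% fell in kidney. The difference was called higher in liver for 17 (41.5%) and lower for 4 (9.76%, Acaa1b, Angptl4, Fabp1 and Pdk4), and 20 did not pass. Of all genes tested the difference was higher in liver for 2.69% and lower for 2.01%. These shares of all genes also stand beside the list counts below. The rises numbered 28 in liver and 23 in kidney without WY14643 day 4 replicate 2. The median effect was 0.55 in liver, 0.28 in kidney and 0.19 for the difference, beside -0.01, 0.00 and 0.00 over all genes tested. Among the 7 panel genes raised in both with no difference called were Acadl (0.56 and 0.39), an acyl-CoA dehydrogenase, Cpt2 (0.21 and 0.31) and Slc25a20 (0.15 and 0.31), which work in the carnitine shuttle, Pex11a (0.54 and 0.35), a protein of peroxisome division, and Plin2 (0.14 and 0.19), a coat protein of lipid droplets. Plin2 lost both its liver and its kidney call without WY14643 day 4 replicate 2 and under most other alternatives. Cpt1a, the gate of the carnitine shuttle, passed in neither tissue (0.18 ± 0.08 in liver, adjusted p = 0.136; 0.03 ± 0.04 in kidney, adjusted p = 0.930), although its liver effect was called without WY14643 day 4 replicate 5 (0.22, adjusted p = 0.0363), and neither did Fgf21, a fasting hormone (-0.42 ± 0.19 and 0.12 ± 0.12).

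**Figure D3:**
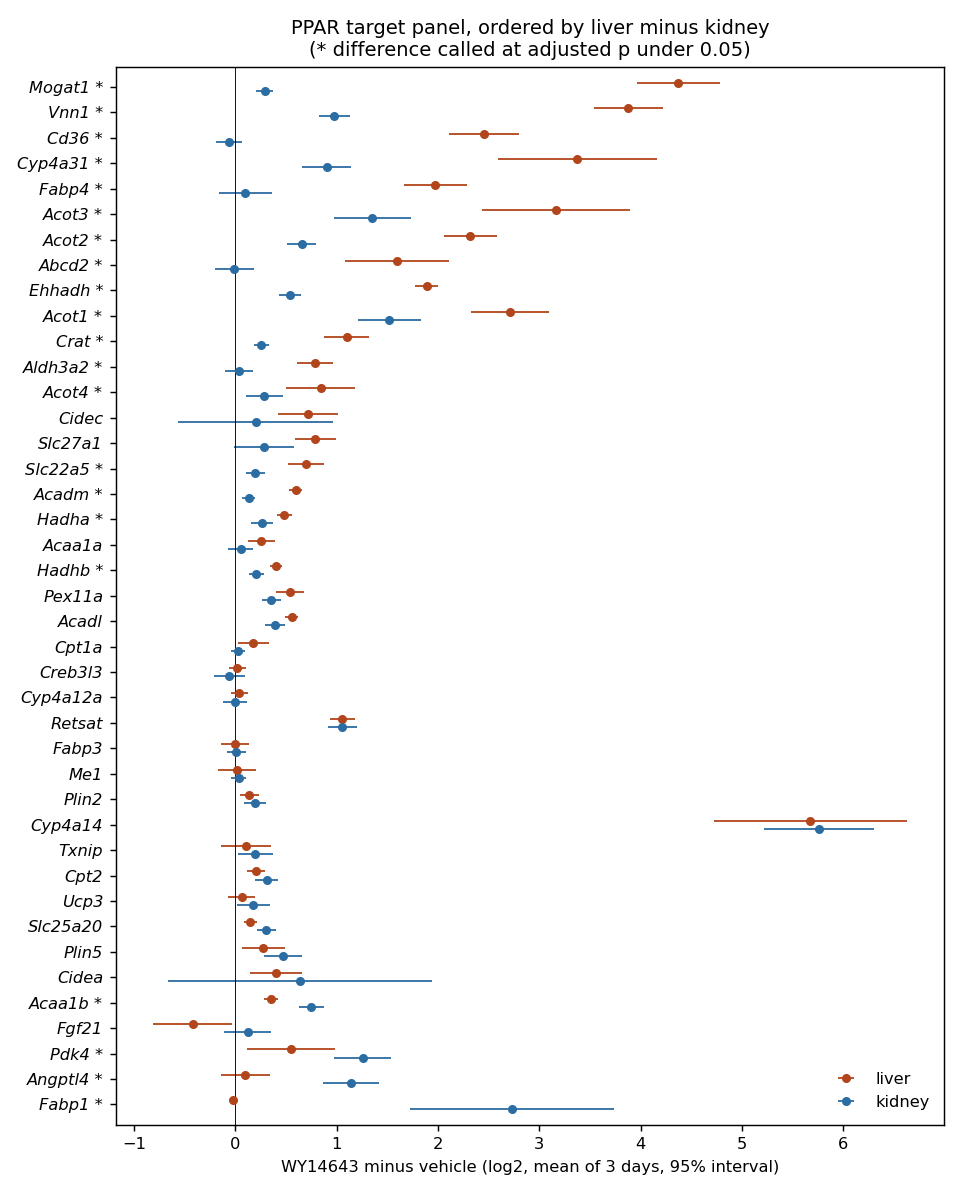
All 41 panel genes are listed on the vertical axis, with the WY14643 effect in liver and in kidney (log2, mean of 3 days) and its 95% interval on the horizontal axis, and an asterisk where the difference between tissues was called. 24 kidney effects and 29 liver effects were called above 0, and Fabp1, Angptl4, Pdk4 and Acaa1b are the starred genes with the larger kidney effect.

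The mitochondrial route of fatty acid oxidation responded in both tissues. Of 28 measured genes 21 rose (75%) and 1 fell (3.57%, Acadsb, -0.21) in liver, and 15 rose (53.6%) and 0 fell in kidney, with medians of 0.20 and 0.13. The difference was higher in liver for 8 (28.6%) and lower for 1 (3.57%). Decr1 (0.37 in liver and 0.32 in kidney), Acadvl (0.27 and 0.32), Eci2 (0.38 and 0.37), Etfb (0.12 and 0.12) and Etfdh (0.14 and 0.14) rose in both with no difference called, although the liver call of Etfdh was lost without WY14643 day 4 replicate 2 (adjusted p = 0.0611). These encode the dienoyl-CoA reductase, the very-long-chain dehydrogenase, a second isomerase, and members of the electron transfer chain from the dehydrogenases to the respiratory chain. Acaa2, the mitochondrial thiolase, was the gene with the larger kidney effect (0.63 ± 0.08 against 0.08 ± 0.02, difference -0.55 ± 0.08, limma adjusted p = 3.16e-06). Other probe sets of Acaa2, with liver means of 13.69 and 12.93, gave 0.64 and 0.82 in kidney and 0.08 and 0.14 in liver. How far brightness limits the liver effect was not tested. Acad10 rose in liver (0.53 ± 0.09) with 0.01 ± 0.08 in kidney, a difference that the probe set of largest variance did not call (0.17, adjusted p = 0.588).

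The peroxisomal list was more uneven. Of 40 measured genes 13 rose (32.5%) and 2 fell (5%) in liver and 10 rose (25%) and 0 fell in kidney. The medians were 0.08 and 0.02, and the difference was higher in liver for 8 (20%) and lower for 3 (7.5%). The kidney falls numbered 1 without WY14643 day 4 replicate 5. Ech1, a dienoyl-CoA isomerase, rose by 0.62 in liver and 0.41 in kidney, Crat, the carnitine acetyltransferase, by 1.10 and 0.26, and Hsd17b4, the second bifunctional enzyme, by 0.23 and 0.17. Other probe sets of Crat rose in liver (0.99 and 0.38) but were not called in kidney (0.20, adjusted p = 0.224, and 0.13, adjusted p = 0.467). The Hsd17b4 call in kidney was lost without WY14643 day 4 replicate 2 (adjusted p = 0.171). Crot, the carnitine octanoyltransferase, rose in liver (0.38) with 0.00 in kidney, and Hacl1, a lyase of alpha-oxidation, rose in kidney (0.50 ± 0.09) with 0.17 ± 0.06 in liver. In the list for omega-hydroxylation and acyl-CoA hydrolysis, 10 of 21 rose (47.6%) and 3 fell (14.3%) in liver and 6 rose (28.6%) and 0 fell in kidney, with medians of 0.15 and 0.10. The difference was higher in liver for 9 (42.9%) and lower for 1 (4.76%). That 1 was Cyp4f14, which hydroxylates leukotrienes and fatty acids: it fell by 0.78 on the log2 scale in liver, with 0.28 ± 0.10 in kidney (difference -1.06 ± 0.17, limma adjusted p = 6.78e-06). Cyp4a31, a relative of Cyp4a14, rose by 3.38 ± 0.39 in liver and 0.90 ± 0.12 in kidney, and its second probe set gave 2.28 in liver and -0.08 in kidney.

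Uptake, storage and ketone genes differed by member. In the list for uptake and activation, 9 of 22 rose (40.9%) and 4 fell (18.2%) in liver and 3 rose (13.6%) and 1 fell (4.55%) in kidney, with medians of 0.07 and 0.02. The difference was higher in liver for 5 (22.7%, Acsm3, Cd36, Fabp4, Lpl and Vldlr) and lower for 4 (18.2%, Acsl3, Acsl6, Acsm2 and Fabp1), and that of Acsm3 was lost without WY14643 day 4 replicate 2 (adjusted p = 0.0828). Lpl, lipoprotein lipase, rose in liver (0.52 ± 0.15) with -0.09 ± 0.06 in kidney, and Acsl3, an acyl-CoA synthetase of lipid droplets, rose in kidney (0.63 ± 0.08) with 0.10 ± 0.13 in liver. Of 24 lipid droplet and lipolysis genes 9 rose (37.5%) and 2 fell (8.33%) in liver and 5 rose (20.8%) and 1 fell (4.17%) in kidney, where the falls numbered 0 without WY14643 day 4 replicate 2. Cidec, a droplet fusion protein, rose in liver (0.72 ± 0.15) with 0.20 ± 0.38 in kidney, and its difference did not pass (adjusted p = 0.638). Plin5, which ties droplets to mitochondria, rose in kidney (0.47 ± 0.09) with 0.27 ± 0.11 in liver and no difference called. The adipocyte marker mean was uneven among the kidneys: 4 of the 5 treated kidneys of day 15 read 7.13 to 7.64, against a vehicle median of 5.30. No marker of that list was called in kidney. With the adipocyte marker mean as a covariate the kidney effect was -0.17 for Cidec (limma adjusted p = 0.766), 0.01 for Cidea (adjusted p = 0.997) and 0.46 for Plin5 (adjusted p = 0.00114), and the Cidec difference was 0.89 and was called (adjusted p = 0.00121). Cidea is itself a member of that marker list, so its value is tied to the covariate. The part of fat in the kidney samples was not tested. Of 8 ketone body genes, Acat1 (0.19) and the transporter Slc16a7 (0.34) rose and Aacs (-0.46) and Bdh2 (-0.45) fell in liver, and Bdh1, the hydroxybutyrate dehydrogenase, fell in kidney (-0.29 ± 0.06) with 0.13 ± 0.06 in liver (difference 0.42 ± 0.08, limma adjusted p = 0.000158). A second probe set of Bdh1 also called the difference (0.40, adjusted p = 0.0105), but its kidney effect of -0.24 was not called (adjusted p = 0.112).

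The medians of the fatty acid synthesis list lay on opposite sides of 0 in the tissues. Of 19 genes 1 rose (5.26%) and 3 fell (15.8%, Elovl3, Elovl6 and Pklr) in liver, and 5 rose (26.3%) and 0 fell in kidney, with medians of -0.05 and 0.15. The difference was lower in liver for 4 (21.1%) and higher for 0. The liver rises numbered 0 without WY14643 day 4 replicate 5, and the liver fall of Elovl6 was lost without replicate 2 (-0.34, adjusted p = 0.0579). The kidney rises were Scd1 (0.65 ± 0.15), the stearoyl-CoA desaturase, Scd2 (0.36), Fads1 (0.30), Elovl5 (0.14) and Srebf1 (0.31), the transcription factor that drives this pathway. Elovl6, a fatty acid elongase, fell by 0.46 on the log2 scale in liver with 0.33 ± 0.11 in kidney (difference -0.78 ± 0.16, limma adjusted p = 0.000580), and Pklr, the liver pyruvate kinase, fell by 0.57 with 0.05 ± 0.05 (difference -0.62 ± 0.08, adjusted p = 7.95e-08). Scd1 lost its kidney call without day 8 (0.56, adjusted p = 0.169) or day 15 (0.54, adjusted p = 0.286). Of 19 cholesterol synthesis genes 5 rose in liver (26.3%) and 5 rose (26.3%) and 1 fell (5.26%) in kidney. Without WY14643 day 4 replicate 2 these counts were 10 in liver and 6 and 1 in kidney, and the called differences went from 2 higher and 2 lower to 2 and 0. Without replicate 5 of that group 1 gene rose in liver. Fdft1, the squalene synthase, rose in both (0.31 and 0.33; the liver call was lost without replicate 5, adjusted p = 0.071), and Nsdhl, a sterol dehydrogenase, fell in kidney (-0.23 ± 0.05) with 0.28 ± 0.11 in liver.

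In the lists of liver functions more genes fell than rose in liver. In xenobiotic metabolism 5 of 33 genes rose (15.2%) and 15 fell (45.5%) in liver, beside 5.58% and 5.74% of all genes, and 3 rose (9.09%) and 0 fell in kidney, beside 0.945% and 0.835%, with medians of -0.12 and 0.04. The difference was lower in liver for 9 (27.3%) and higher for 5 (15.2%), beside 2.01% and 2.69% of all genes. Cyp2c50 (-0.82 ± 0.11), Cyp2c54 (-0.88 ± 0.13), Cyp1a2 (-0.65), Gsta4 (-0.55) and Gstm3 (-0.75), enzymes of drug clearance, fell in liver, and the Cyp2c and Gstm genes have near-identical relatives. The Gstm3 difference of -0.67 lost its call without WY14643 day 4 replicate 2 (-0.40, adjusted p = 0.155). Cyp2b9 rose in liver (2.16 ± 0.55) with -0.11 ± 0.09 in kidney, and Nr1i3, the receptor CAR that drives Cyp2b genes, rose by 0.37 ± 0.08 with 0.03 ± 0.07. Both differences were lost without day 15 (adjusted p = 0.546 and 0.390). In bile acid synthesis and transport 1 of 23 rose (4.35%) and 7 fell (30.4%) in liver and 1 rose and 1 fell in kidney (4.35% each, Abcc3 and Slco1a1). The called differences were 2 lower in liver (8.7%), and 1 without WY14643 day 4 replicate 2. Abcc3, an export pump, rose in both (0.57 and 0.52), and Cyp7a1, the rate-limiting enzyme of bile acid synthesis, did not pass in liver (-0.64 ± 0.23, adjusted p = 0.0546). The Cyp7a1 difference of -0.76 (adjusted p = 0.0339) was lost without any 1 of 5 WY14643 animals (day 4 replicate 2, day 8 replicates 1 and 3, and day 15 replicates 4 and 5), with adjusted p = 0.0507 to 0.0923. Of 31 complement, coagulation and acute phase genes 3 rose (9.68%) and 13 fell (41.9%) in liver and 1 rose (3.23%) and 0 fell in kidney. C8b (-0.45), a part of the membrane attack complex, and F7 (-0.35), a clotting factor, fell in liver with a called difference, and Apcs, serum amyloid P, was the kidney rise (0.65 ± 0.18) with -0.01 ± 0.05 in liver. The Apcs call was lost without WY14643 day 4 replicate 2 (0.55, adjusted p = 0.119), so that 0 genes of the list rose in kidney, and without replicate 5 the kidney rises numbered 3. 4 of the 12 hepatocyte markers also fell in liver (Ahsg -0.09, Apoh -0.04, C9 -0.34 and Serpina1c -0.12). Their part in these falls was not tested.

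In the glucose and amino acid lists more genes fell than rose in liver as well. Of 29 glucose genes 2 rose (6.90%) and 6 fell (20.7%) in liver and 2 rose (6.90%) and 0 fell in kidney. The liver rises numbered 4 and the kidney falls 1 without WY14643 day 4 replicate 5. The difference was lower in liver for 7 (24.1%) and higher for 1 (3.45%). G6pc, the last enzyme of glucose release, fell by 0.74 on the log2 scale in liver with -0.01 ± 0.05 in kidney (difference -0.73 ± 0.11, limma adjusted p = 3.39e-06), although the kidney also makes glucose. Slc2a2, the glucose transporter of both cell types, fell in liver (-0.20 ± 0.06) with 0.15 ± 0.05 in kidney, and Fbp2, a fructose bisphosphatase, rose by 1.21 ± 0.13 and 0.40 ± 0.09. Of 35 amino acid and urea cycle genes 1 rose (2.86%) and 10 fell (28.6%) in liver and 2 rose (5.71%; Arg2 and Gldc) and 3 fell (8.57%; Haao, Ivd and Kmo) in kidney. The kidney counts without WY14643 day 4 replicate 2 were 0 and 3, and without replicate 5 the liver rises numbered 2. The difference was higher in liver for 3 (8.57%) and lower for 3 (8.57%), and without replicate 5 it was lower for 5. Prodh, proline dehydrogenase, fell in liver (-0.45 ± 0.11) with 0.04 ± 0.07 in kidney, and Kmo, an enzyme of tryptophan breakdown, fell in kidney (-0.32) with 0.06 in liver. Of 22 apolipoprotein and lipid export genes 3 rose (13.6%) and 5 fell (22.7%) in liver and 2 rose in kidney (9.09%, and 1 gene without WY14643 day 4 replicate 5). Pltp, the phospholipid transfer protein, rose in liver (0.67 ± 0.11) with 0.01 ± 0.04 in kidney.

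Genes of the respiratory chain rose in liver by small amounts. 19 of 40 rose (47.5%) and 0 fell in liver, and 2 rose (5%) and 0 fell in kidney, with medians of 0.06 and 0.02. The difference was higher in liver for 5 (12.5%, Cox6b2, Cox7a1, Cycs, Ndufb3 and Uqcrfs1) and lower for 0, fewer than the liver calls. Apart from Cox6b2 the largest of these was Cox7a1, a muscle-type oxidase subunit, at 0.57 ± 0.10 in liver and 0.04 ± 0.10 in kidney. The count in liver was 25 without WY14643 day 4 replicate 2 and 16 without replicate 5. Of 31 proximal tubule transport genes 0 rose and 3 fell in kidney (9.68%; Slc17a3, Slc22a7 and Slc22a8), and 1 rose (3.23%) and 4 fell (12.9%) in liver. Without WY14643 day 4 replicate 2 the kidney falls numbered 0, and without replicate 5 the kidney rises numbered 1. Slc22a7, an organic anion transporter, fell in liver by 1.17 on the log2 scale and had an effect of -0.33 ± 0.09 in kidney (adjusted p = 0.0344), a call lost without any 1 of 6 treated animals (adjusted p = 0.0531 to 0.143). Of 25 distal nephron genes 2 rose and 2 fell in liver (8% each, near the 5.58% and 5.74% of all genes) and 1 rose in kidney (4%). Trpm6, a magnesium channel, rose in both (0.34 and 0.39). In the cell cycle list 0 of 29 rose or fell in liver, while 4 fell (13.8%, Ccna2, Ccnb2, Cdk1 and Mki67) and 1 rose (3.45%, Myc) in kidney. The falls numbered 2 without WY14643 day 4 replicate 2 (Cdk1 at adjusted p = 0.0788 and Mki67 at 0.0931 lost their calls), and 1 gene then rose in liver, Birc5 (0.67, adjusted p = 0.0476). The difference was higher in liver for 3 (10.3%) and lower for 0, beside 2.69% and 2.01% of all genes. These were Birc5, Cdk1 and Top2a, genes of mitosis, with differences of 1.04, 0.78 and 0.97. With all animals Birc5 (adjusted p = 0.08 in liver) and Top2a (adjusted p = 0.0707 in kidney) were called in neither tissue. Dimmer probe sets of Top2a gave differences of -0.12 (adjusted p = 0.723) and 0.09 (adjusted p = 0.743), so the Top2a difference depends on the probe set. Of 20 oxidative stress genes 1 fell in liver (5%, near the share of all genes) and 0 were called in kidney, and the 1 called difference was Nqo1 (0.53). The liver count was 3 rises and 1 fall without WY14643 day 4 replicate 2, the rises being Gpx1 (0.05), Gpx4 (0.10) and Nqo1 (0.42). Without replicate 5 it was 0 rises and 2 falls, and the Nqo1 difference was 0.41 and not called (adjusted p = 0.0582).

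No PPAR or RXR gene was called in either tissue. Of 17 receptor, partner and coregulator genes 1 rose (5.88%; Med1, 0.09) and 1 fell (5.88%; Ncoa3, -0.25) in liver, near the shares of all genes, and 1 rose in kidney (5.88%), which was Fabp1, listed there because it delivers ligand to the receptor. Ppara, the receptor of WY14643, had effects of 0.09 ± 0.07 in liver and -0.16 ± 0.08 in kidney, and its difference of 0.25 ± 0.09 did not pass (limma adjusted p = 0.115). The Ppara difference was 0.32 and was called without WY14643 day 4 replicate 2 (adjusted p = 0.0168). Without replicate 5 the Med1 call in liver was lost (adjusted p = 0.0952).

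**Figure D4:**
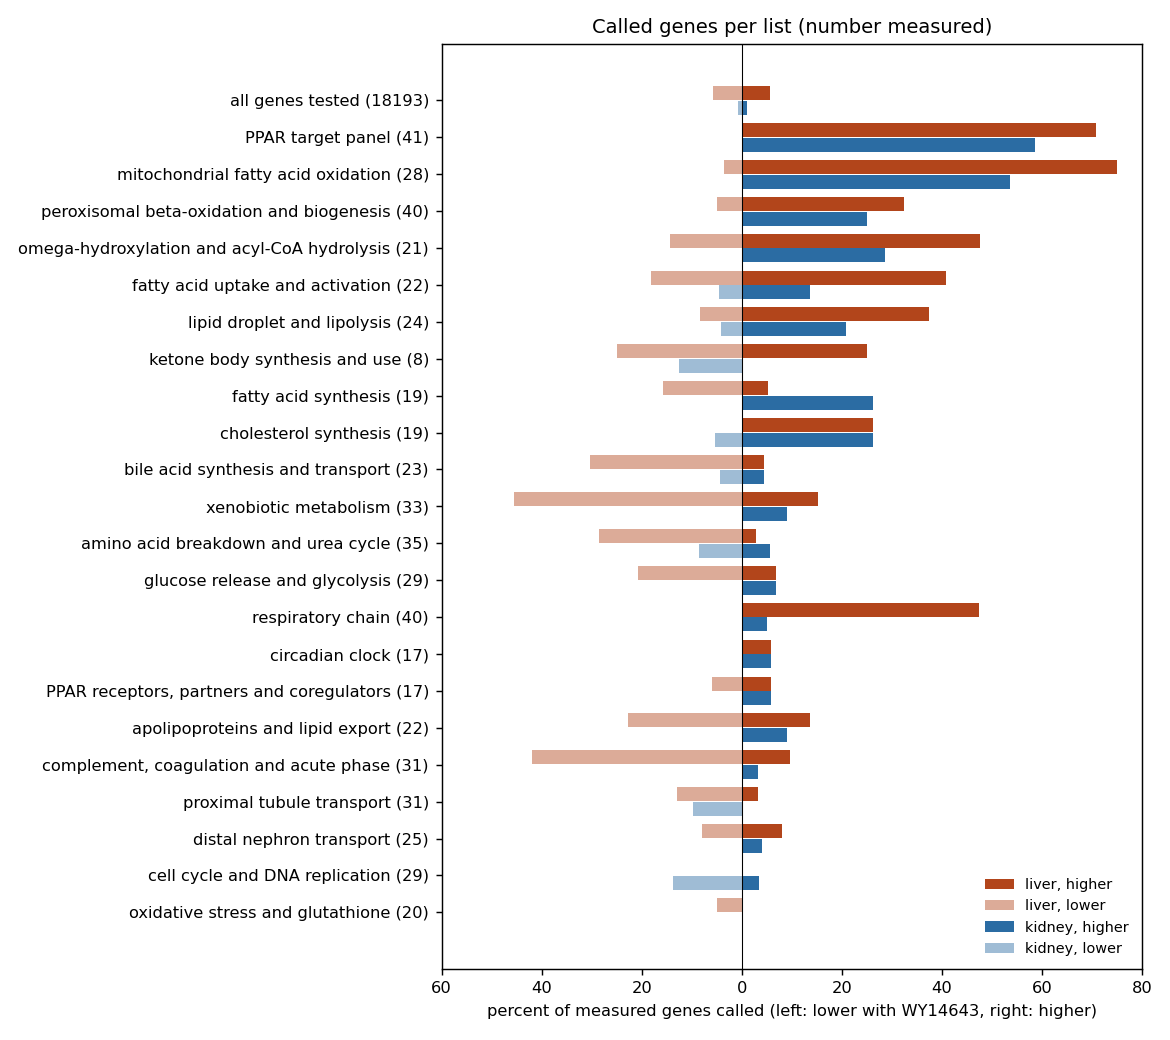
For 22 gene lists and for all 18193 genes, bars give the percent of measured genes called up or down with WY14643 in liver and in kidney, with falls drawn to the left of 0. Fatty acid oxidation lists rise in both tissues, and the xenobiotic, complement and bile acid lists show more falls than rises in liver.

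The difference between the tissues was also tested on each day. It was called for 298 genes on day 4 (1.64%), 279 on day 8 (1.53%) and 149 on day 15 (0.819%). The day 4 count was 71 without WY14643 day 4 replicate 2 and 187 with the tissues as independent arrays. The day 8 count was 142 without WY14643 day 8 replicate 2 and 170 without replicate 4. The day 15 count was 85, 95 and 99 without WY14643 day 15 replicate 5, 1 and 2. In liver 1188 genes were called on day 4 (6.53%), 1150 on day 8 (6.32%) and 519 on day 15 (2.85%), and in kidney 50 (0.275%), 90 (0.495%) and 103 (0.566%). Without WY14643 day 4 replicate 2 the day 4 counts were 672 in liver and 19 in kidney, and without replicate 5 the kidney count of day 4 was 78. The liver excess of Mogat1 was 3.57 ± 0.35, 4.38 ± 0.35 and 4.31 ± 0.35 on days 4, 8 and 15, and that of Vnn1 was 2.76, 2.95 and 2.99 (± 0.30 each). Both were called on each day by limma, and no change was called between days 4 and 15 (adjusted p = 0.897 and 0.985). The difference of Cd36 was 1.62 ± 0.34, 2.81 ± 0.34 and 3.12 ± 0.34, that of Acsm2 -0.61, -0.99 and -1.84 (± 0.30 each), and that of Angptl4 -0.83, -1.14 and -1.17 (± 0.22 each). The change from day 4 to day 15 was not called for any of these 3 (adjusted p = 0.393, 0.465 and 0.954), and the Acsm2 difference was called on day 15 only. The difference of Fabp1 was -1.91, -3.80 and -2.54 (± 0.88 each) and was called on day 8 only.

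The genes whose tissue difference changed from day 4 to day 15 included members of the circadian clock. 18 genes were called (0.0989%), 11 up (0.0605%) and 7 down (0.0385%), 10 with the tissues as independent arrays, and 11 without WY14643 day 15 replicate 2 or replicate 3. Arntl, the clock activator BMAL1, had liver effects of 2.04, -2.07 and -0.33 (± 0.40 each) on days 4, 8 and 15 and kidney effects of 0.40, -1.26 and 0.18 (± 0.32 each). Its difference changed by -2.14 ± 0.38 between days 4 and 15 (limma adjusted p = 0.00124). Ciart, a repressor of the clock, went the other way in liver (-1.27, 2.40 and 1.14), with a change in the difference of 2.24 ± 0.46 (adjusted p = 0.00975). Usp2, a deubiquitinase with rhythmic expression, followed Ciart in liver (-1.88, 2.48 and 0.71; change 2.55 ± 0.46, adjusted p = 0.00162), and Nckap5 followed Arntl (1.46, -2.72 and -1.39; change -2.98 ± 0.37, adjusted p = 2.82e-07). In kidney no effect of Ciart, Usp2 or Nckap5 was called on any day. Mylip, a ubiquitin ligase for lipoprotein receptors, was the case in which the kidney moved: 0.81 ± 0.17 on day 15 (adjusted p = 0.00326) with 0.00 ± 0.12 in liver. The first component of the clock genes of each tissue was also added to the fit. It comes from the same arrays and from genes such as Arntl and Ciart, so a change in the calls is partly built in. With it 13 genes were called on day 4, 1 for the change from day 4 to day 15 and 827 for the mean of the days. The hour of collection is not given in the sources used here, and its part was not tested. Over the mean of the 3 days 3 of 17 clock genes had a called difference (17.6%), Cry1 (-0.61), Per2 (-0.43) and Bhlhe40 (-0.41), all lower in liver relative to kidney, beside 2.01% of all genes. Without WY14643 day 4 replicate 2 the difference of Ciart was called as higher (0.62, adjusted p = 0.0361). In liver 1 clock gene rose (5.88%, near the 5.58% of all genes) and 0 fell. In kidney 1 rose (5.88%, beside 0.945% of all genes) and 0 fell. Without replicate 5 of that group 2 rose in liver and 0 in kidney.

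**Figure D5:**
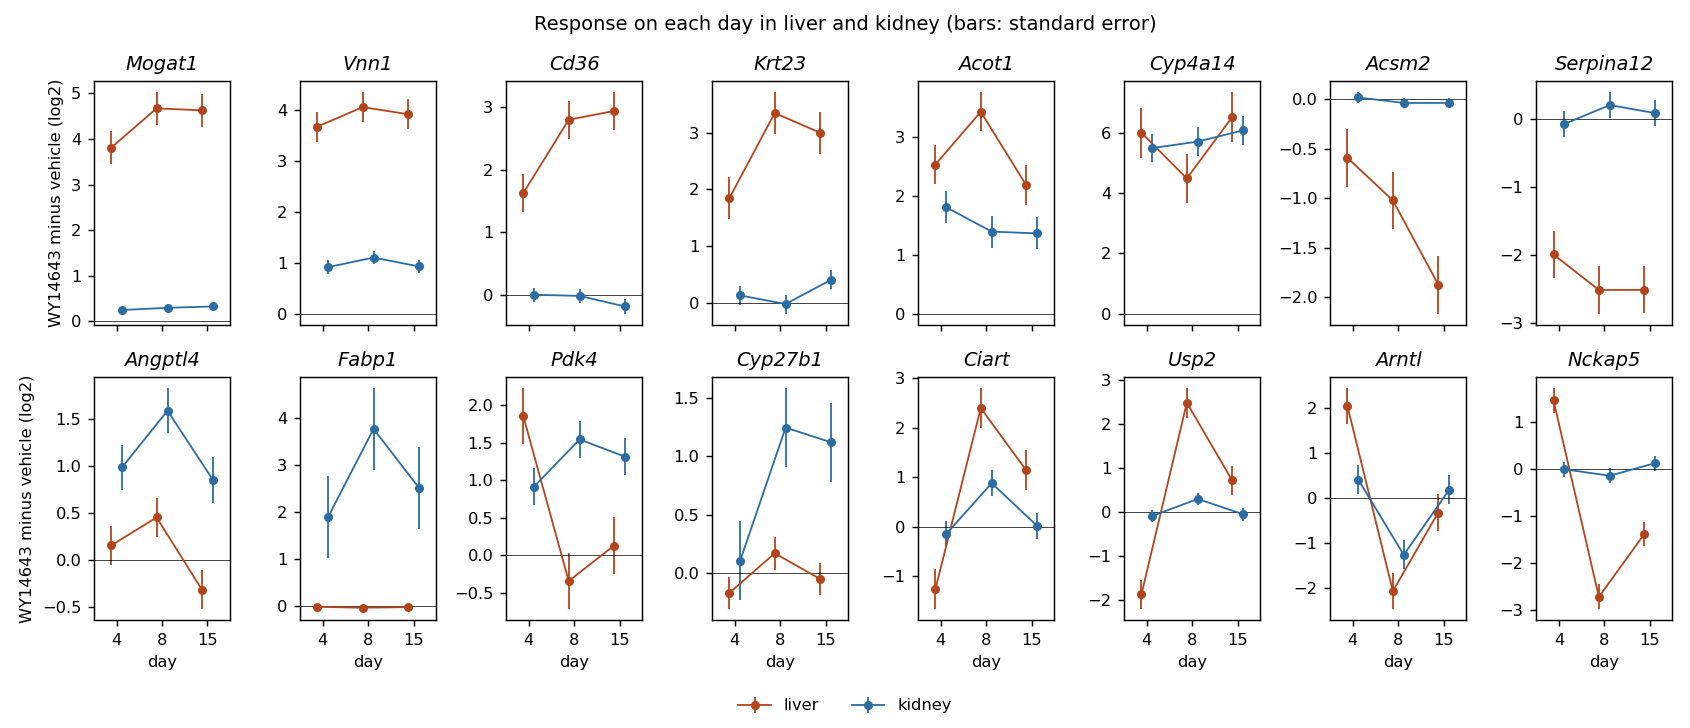
For 16 genes the WY14643 effect (log2) is plotted for days 4, 8 and 15 in liver and in kidney, with standard errors as bars. Mogat1, Vnn1 and Cyp4a14 stay high across the days, while Arntl, Nckap5, Usp2 and Ciart change sign in liver between days 4 and 8.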

How the data were processed

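Total RNA of each tissue was labelled from 100 ng with the NuGEN WT Ovation kit and read on 1-colour Affymetrix mouse genome arrays. The deposited values are log2 intensities that the authors made with RMA in Partek, per the submitters' processing notes; versions are not given in the sources used here, and the array medians show that liver and kidney differ in scale. Of 45101 probe sets, 34945 named 1 gene, 932 several and 9160 none; the probe set with the highest mean stood for each of 18193 genes, 9010 of which had several. The design text spells the compound WY16453 and the labels WY14643. Vehicle and treated animals are separate mice, and replicates were numbered by mouse number within a group.

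Within-animal differences of 75 animals in 12 groups were fitted with limma 3.58.1 in R 4.3.3 (63 residual degrees of freedom, eBayes with trend). Each day's WY14643 minus vehicle contrast was averaged over 3 days, and adjusted p-values are Benjamini-Hochberg over all genes, called under 0.05. Each tissue was fitted alike. Mouse numbers tie the tissues of an animal: liver and kidney deviations correlated at a median of 0.166, against -0.034 with other animals, and 74 of 75 animals correlated better with themselves.

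Members, lists and tests were chosen with earlier results of these data known. Named genes are the largest differences with at least 14 of 15 animals on their side, the largest effects of each response class, the PPAR panel, and up to 4 members per list; further list members were named after their values were seen. Alternatives were other probe sets, arrays weighted, centred or quantile normalized, eBayes without trend, dim genes left out, covariates for clock genes and cell markers (adipocyte markers added after seeing the data), other blocks, and leaving out days or animals. Promoters cover the 250 bases before each start, where 300 with 50 bases after it had been planned. Precision is limited by the number of arrays. Pairs of near-identical genes may share probes.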

Additional observations from a re-analysis of the deposited data

Results flagged for a closer look

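These values stood apart from the rest of their group by Dixon's test (16 of 282 groups, 5.67%, where chance alone gives about 1 in 20), and no explanation was tested. For the liver minus kidney level, Aldh1a1 was 7.23 in vehicle day 4 replicate 5 (others 3.58 to 5.37), Angptl4 2.04 in WY14643 day 8 replicate 5 (1.63 to 1.74), and Cd36 -4.74 in vehicle day 4 replicate 4 (-4.07 to -3.37). Cox6b2 was 2.91 in WY14643 day 8 replicate 1 (1.38 to 1.63), -1.67 in vehicle day 4 replicate 6 (-0.88 to -0.24), 2.85 in vehicle day 8 replicate 4 (-0.84 to 1.01) and 2.32 in vehicle day 15 replicate 10 (-0.95 to 0.63). Cyp24a1 was -4.41 in WY14643 day 8 replicate 2 (-6.79 to -6.17), Mgll 1.87 in vehicle day 15 replicate 10 (2.26 to 2.69) and Reep6 5.39 in vehicle day 15 replicate 7 (3.79 to 4.48).

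Among marker means, the exocrine pancreas mean of the kidney of WY14643 day 4 replicate 2 was 11.66 (others of its group 3.23 to 3.41). The adipocyte mean was 4.20 in the kidney of WY14643 day 15 replicate 4 (7.13 to 7.64) and 5.51 in the liver of vehicle day 4 replicate 3 (5.79 to 6.06), whose leukocyte mean was 8.72 (7.77 to 8.27). The hepatocyte mean was 14.21 in the liver of vehicle day 4 replicate 6 (14.12 to 14.17), and the kidney tubule mean was 4.98 in the liver of WY14643 day 8 replicate 3 (4.57 to 4.66).

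Effects that differed between the tissues by limma's test of the difference numbered 856 genes, and those whose difference changed from day 4 to day 15 numbered 18. Of the genes with opposite directions, the differences were 0.42 for Ivd, 1.42 for Meig1, -0.39 for Nudt7, 0.44 for Odc1, -0.72 for Slc23a3 and 0.52 for Tk1.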

How the results depend on the processing

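Counts of called genes moved by over 1.5 times in these cases, and the cause was not tested. With the probe set of largest variance, opposite directions were called for 7 genes, the day 8 difference for 180 and the change from day 4 to day 15 for 11. With only WY14643 and vehicle animals 2.84% of all genes were called in kidney. With array weights 3.55% of genes were called in kidney, and the counts were 179 in the same direction, 27 opposite, and 177, 531 and 297 on days 4, 8 and 15. With clock components as covariates they were 13, 129 and 229 on those days and 1 for the change between days. Without day 4, 5 genes were opposite. Without day 8 the counts were 569 differences, 321 higher, 35 kidney-led and 7 opposite, with 0.989% of genes called in kidney. Without day 15 they were 403 differences, 241 higher, 162 lower, 1208 in liver, 300 liver-led, 22 kidney-led, 45 in the same direction and 3 opposite, with 0.588% called in kidney.

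The pairing by mouse was dropped in a fit with no replicate block, which called 709 differences, 187 on day 4 and 10 for the change between days. A replicate block by number across treatments called 626 differences and 81 on day 4; those numbers share no animal (15 pairs, median correlation -0.036, 1 over 0.1).

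Leaving out 1 animal gave 689 to 921 differences (389 to 538 higher, 276 to 388 lower), 1815 to 2130 in liver, 1.25% to 1.89% of genes in kidney, 508 to 649 liver-led, 54 to 101 kidney-led, 73 to 110 in the same direction, 7 to 14 opposite, 71 to 368 on day 4, 142 to 315 on day 8, 85 to 202 on day 15 and 11 to 26 for the change between days. The sign turned with the probe set of largest variance for the differences of Hadhb (-0.065) and Retsat (0.712) and the kidney effect of Cyp4a31 (-0.081), and without day 4 for the differences of Arntl (-0.656) and Nrep (0.814). Of the 856 genes 548 were also called with the probe set of largest variance and 777 with array weights.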
